A study of Mus musculus with 12 samples.

Results

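TIP60 is a lysine acetyltransferase encoded by Kat5, and its knockdown was examined in fat cells made from 3T3-L1, a clonal fibroblast-like mouse line that turns into lipid-storing mature adipocytes in culture. The comparison takes 8 of the 12 two-colour arrays of the series: 4 of TIP60-si cells, which received small interfering RNA against TIP60, and 4 of control-si cells, which received a control small interfering RNA. The third group of the series, 4 arrays of USP7-si cells (small interfering RNA against the deubiquitinase gene Usp7), entered the fit and is given beside the results where it bears on them. All cells were differentiated first, transfected by Amaxa electroporation and lysed for RNA 2 days later, so every group shares the electroporation. The labels give neither the number nor the sequences of the small interfering RNAs, and they do not say whether the 4 samples of a group were separate cultures. The p-values therefore measure the spread between these samples only, which may be technical. Every array carried, in the other dye, 1 reference RNA made from 3T3-L1 cells that had not been differentiated. The dyes were swapped in balance: in each group Cy3 marked the adipocyte RNA of replicates 1 and 3, Cy5 that of replicates 2 and 4.

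TIP60 is the catalytic subunit of the NuA4 chromatin complex, which acetylates the tails of histones H4 and H2A at promoters and at DNA breaks. The complex also helps to place the histone variant H2A.Z in nucleosomes, and TIP60 acetylates other proteins such as the kinase ATM and the tumour suppressor p53. In 3T3-L1 cells TIP60 is known as a coactivator of PPARgamma, the master regulator of adipogenesis, which is the setting of the question put here: which transcripts of the already differentiated cell differ once Kat5 is lowered.

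A level below is the log2 ratio of the adipocyte sample over the reference RNA, corrected for the dye, and a difference is TIP60-si minus control-si on that log2 scale, so that 0 means equal. Errors of differences are standard errors (SE) from limma, errors of group means are SD over 4 arrays, and adjusted p-values are from limma with Benjamini-Hochberg adjustment over all 41174 gene probes. A probe is called where the adjusted p is below 0.05. Counts within gene lists are to be read against the brightest probes of all 18295 genes, of which 5.21% were called, 3.74% lower and 1.46% higher. A list count near these shares says nothing particular about the list. Levels of different genes are not set against each other. Beside a gene measured by several probes the range of its other probes' differences is given. An omission is a refit without 1 of the 8 arrays compared, and a call that omissions ended is marked with their number.

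The targeted transcript was lower in TIP60-si. Kat5, measured by 1 probe, stood at -1.17, -1.22, -1.22 and -1.10 in TIP60-si, against -0.14, -0.39, -0.090 and -0.091 in control-si. The 4 TIP60-si arrays lay close together and all below control-si, where replicate 2 was the lowest array. The mean was -1.18 ± 0.055 in TIP60-si and -0.18 ± 0.14 in control-si (SD, n = 4 each), a difference of -0.999 (SE 0.068, adjusted p = 1.17e-05), which left 50.03% of the control-si level. The call was kept under all 27 alternative settings. The difference was -1.08 on the arrays with the sample in Cy3 and -0.92 on those with it in Cy5. In USP7-si the Kat5 difference from control-si was -0.042. Each value is a mean over the cells of a dish, so fewer cells with a transcript and less of it per cell cannot be told apart.

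Of the 41174 gene probes, 1556 (3.78%) differed between TIP60-si and control-si, 515 (1.25%) higher and 1041 (2.53%) lower, so 66.9% of the called probes were lower. The differences were small: their median size was 0.29, and 32 higher and 47 lower probes passed 1.5-fold. Past 2-fold stood 1 probe that rose, which carries no gene symbol, and the 3 that fell, of Papss1, Cyp51 and Cavin3. The called probes with a symbol numbered 1373 and covered 1219 genes, 398 with a higher and 825 with a lower probe. In 1509 of the 1556 the 4 TIP60-si arrays all lay beyond the 4 control-si arrays, which held for 11.5% of all probes. TIP60-si against USP7-si gave 3037 called probes (7.38%), and of the 1556 above, 1111 were among them with the same sign while 441 were not called. Both comparisons use the same 4 TIP60-si arrays. For genes named by their difference from control-si, here and below, the comparison with USP7-si is therefore not a separate test. The count of 1556 depends on single arrays: it was 884 without TIP60-si replicate 3, and 859, 736 and 743 without control-si replicates 1, 2 and 4. It was 98 within the Cy3 arrays and 32 within the Cy5 arrays, where 2 arrays a group remain, 26 with median centring in place of loess and 97 after scaling all arrays to an equal spread.

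**Figure D1:**
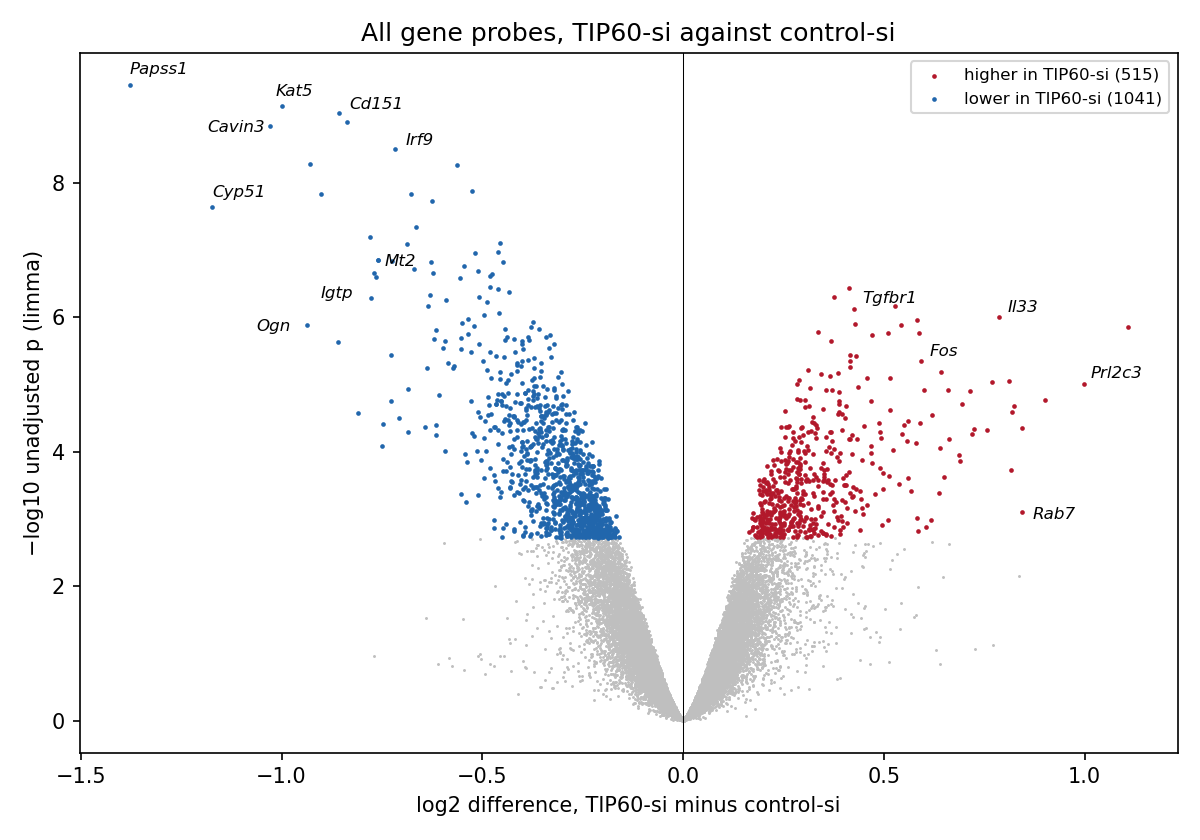
Difference between TIP60-si and control-si on the log2 scale (x axis) against the −log10 of the unadjusted limma p (y axis) for each of the 41174 gene probes. Red points are the 515 called higher and blue points the 1041 called lower, grey points were not called, and the labelled genes are described in the text; the lower side holds more called probes.

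Genes of the interferon response were lower together in TIP60-si. These genes are switched on when interferon receptors activate STAT proteins, and their products restrain viruses and other intracellular microbes. Of 37 measured members of the list of interferon and double-stranded RNA response genes, 14 fell and 0 rose, where the brightest probes of all 18295 genes were called in 5.21%, lower in 3.74% and higher in 1.46%. The median difference of the 37 was -0.27, against -0.0047 over all genes, and 33 of them lay below 0. Irf9 encodes the DNA-binding subunit of the interferon-activated factor ISGF3. Its level was -0.83, -0.91, -0.85 and -0.78 in TIP60-si, against -0.16, -0.12, -0.13 and -0.082 in control-si. Each group was tight and the groups lay far apart, with a difference of -0.72 (SE 0.054, adjusted p = 2.18e-05, 1 other probe at -0.25). Ifit1, an antiviral protein that binds foreign RNA, stood at -0.43, -0.58, -0.71 and -0.23 in TIP60-si, against 0.012, 0.20, 0.38 and 0.37 in control-si. All TIP60-si arrays were below 0 and all control-si arrays above it (difference -0.73, SE 0.11, adjusted p = 0.00392). Isg15, a ubiquitin-like modifier, stood at -0.55, -0.60, -0.38 and -0.40 in TIP60-si, against -0.11, 0.10, 0.59 and 0.30 in control-si. Control-si spread more than TIP60-si, and its lowest array, replicate 1, was still above all of TIP60-si (difference -0.71, adjusted p = 0.00513). Ifi27 had the highest difference of the list, 0.32, and was not called (adjusted p = 0.0742). The list held 1 rise without TIP60-si replicate 1 or control-si replicate 1. Also lower were the receptor chaperone gene Rtp4 (-0.61), the guanylate-binding protein gene Gbp3 (-0.52), Usp18, which removes ISG15 from its targets (-0.49), Ifit2 (-0.48, 1 other probe at -0.10) and the apoptosis factor gene Xaf1 (-0.40), with adjusted p from 0.00349 to 0.00693. These 8 calls were kept under all 8 omissions. The other 6 that fell were Ifit3, Bst2, Gbp2, Psmb9, Ifih1 and Irf1, with differences from -0.55 to -0.23.

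A second interferon-inducible family, the immunity-related GTPases, supplied 4 of the 20 largest named falls. Some members of the family sit on the vacuoles of intracellular parasites, and the genes are best known as targets of interferon gamma in the mouse. Igtp stood at 0.30, 0.30, 0.29 and 0.31 in TIP60-si, against 0.83, 1.18, 1.24 and 1.07 in control-si. The 4 TIP60-si arrays were nearly equal, and control-si replicate 1 was the lowest control (difference -0.78, SE 0.089, adjusted p = 0.000529). Irgm2 stood at 0.13, 0.095, 0.24 and 0.22 in TIP60-si, against 0.72, 1.05, 1.03 and 0.92 in control-si. Here too every TIP60-si array was below every control-si array (difference -0.76, adjusted p = 0.000258). Tgtp2 (-0.75, 1 other probe at -0.078) and Ifi47 (-0.75) fell with adjusted p of 0.00826 and 0.00568. Outside the naming rule, chosen after their values were seen, Iigp1 was lower by -0.47 (adjusted p = 0.0364) and 2 of 3 Irgm1 probes by -0.64 and -0.57 (adjusted p = 0.00212 each, the other at -0.0053). Apol9a, of the apolipoprotein L family, was at 0.12, 0.28, 0.038 and -0.13 in TIP60-si, against 0.77, 1.21, 0.92 and 0.85 in control-si, with all of TIP60-si lower (difference -0.86, adjusted p = 0.0012).

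The promoters of these genes are shown because genes of this response commonly carry the interferon-stimulated response element, whose letters, GAAA, any 2 bases and GAAA, were searched on both strands of the 250 bases before each annotated start (RefSeq, GRCm38.p6). The letters occurred in 936 of 27025 genes with a promoter window (3.46%), in 12 of the 29 measured list members with one (41.4%), in 6 of the 12 that fell, and in 6 of the 17 not called (35.3%). They also occurred in 4 of the 5 GTPase genes Igtp, Irgm1, Irgm2, Ifi47 and Tgtp2, which were taken here because they fell, and Iigp1, named above with them, had no promoter window. The list was chosen for its response to interferon, so the share in the list as a whole is a description of the list. The 150 bases before the start are given in the direction of transcription with those letters in capitals, from chr19:34640739-34640888 (plus strand) for Ifit1, chr4:156200819-156200968 (minus strand) for Isg15, chr11:58199406-58199555 (plus strand) for Igtp and chr11:58214827-58214976 (plus strand) for Irgm2.
Ifit1: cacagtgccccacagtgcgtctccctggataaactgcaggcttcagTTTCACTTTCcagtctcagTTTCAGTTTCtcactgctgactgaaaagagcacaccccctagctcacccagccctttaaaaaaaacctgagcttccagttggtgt
Isg15: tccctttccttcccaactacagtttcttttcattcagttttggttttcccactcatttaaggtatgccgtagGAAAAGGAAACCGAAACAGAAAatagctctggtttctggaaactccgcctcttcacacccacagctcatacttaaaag
Igtp: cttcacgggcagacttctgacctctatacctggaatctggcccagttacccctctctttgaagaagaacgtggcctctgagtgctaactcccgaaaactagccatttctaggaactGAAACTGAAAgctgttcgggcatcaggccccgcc
Irgm2: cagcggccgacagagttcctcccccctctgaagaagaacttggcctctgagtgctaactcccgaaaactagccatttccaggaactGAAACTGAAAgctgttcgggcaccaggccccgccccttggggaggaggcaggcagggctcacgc
Ifit1 holds the letters at 2 places on the opposite strand, and in Isg15 overlapping matches run together. Igtp and Irgm2 hold 1 match each, and the genes are neighbours whose aligned 250 bases were 69.1% identical. A match describes letters only and was not tested as a site.

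USP7-si against control-si called 35 probes (0.085%). In USP7-si, which shares the control-si arrays, the interferon list had a median of -0.16. The test of TIP60-si against USP7-si called 5 of the 14 members that fell. Irf9 and Ifit1 were among them (USP7-si minus control-si -0.066 and -0.14, adjusted p of TIP60-si against USP7-si 3.77e-05 and 0.00767), and Isg15 and Usp18 were not (-0.40 and -0.42, adjusted p = 0.135 and 0.695). Igtp and Irgm2 differed between the knockdowns (adjusted p = 0.0015 and 0.00347), while Tgtp2 did not pass (adjusted p = 0.0854). The interferon median was -0.26 within the Cy3 arrays and -0.27 within the Cy5 arrays, and it stayed below 0 under all 27 alternatives. Omissions left between 10 and 16 members lower, median centring left 0 and scaling over 12 arrays 1.

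Cell division genes fell as well. Of 39 measured genes of mitosis, 15 fell (38.5%, against 3.74% of all genes) and 0 rose, with a median of -0.26 and 37 members below 0. Ccnb2, a cyclin that drives entry into mitosis, stood at 0.75, 0.73, 0.68 and 0.48 in TIP60-si, against 1.12, 1.41, 1.14 and 1.33 in control-si. TIP60-si replicate 4 was the lowest array, and the groups were separated by a wide gap (difference -0.59, SE 0.077, adjusted p = 0.0012). Birc5, or survivin, a subunit of the chromosomal passenger complex, stood at 1.59, 1.56, 1.29 and 1.39 in TIP60-si, against 1.92, 2.15, 1.99 and 2.11 in control-si. Its groups did not overlap (difference -0.59, adjusted p = 0.00191). Mki67, the proliferation marker, stood at 1.44, 1.47, 1.36 and 1.17 in TIP60-si, against 1.74, 2.05, 1.76 and 1.93 in control-si. TIP60-si was again wholly below control-si (difference -0.51, adjusted p = 0.00466, 1 other probe at -0.21). The others with the smallest p were the cyclin gene Ccna2 (-0.47), the ubiquitin-conjugating enzyme gene Ube2c (-0.46), the anaphase activator gene Cdc20 (-0.45), the kinesin gene Kif20a (-0.32, 2 other probes between -0.54 and -0.100) and the condensin gene Ncapd2 (-0.26, 2 other probes between -0.20 and -0.11), all with calls kept under the 8 omissions. The other 7 that fell were Cenpa, Cenpf, Bub1b, Cenpe, Plk1, Kif4 and Foxm1, with differences from -0.54 to -0.20.

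Promoters of mitotic genes commonly carry CCAAT boxes, and the letters CCAAT (both strands) occurred in the 250 bases before the start of 11 of the 12 mitosis genes that fell and have a window (91.7%), of 14 of the 20 not called (70.0%) and of 37.5% of all 27025 genes. Ccnb2 and Cdc20 are shown because each carries the letters more than 1 time in its last 150 bases, in the direction of transcription with CCAAT in capitals, from chr9:70421555-70421704 (minus strand) for Ccnb2 and chr4:118437344-118437493 (minus strand) for Cdc20.
Ccnb2: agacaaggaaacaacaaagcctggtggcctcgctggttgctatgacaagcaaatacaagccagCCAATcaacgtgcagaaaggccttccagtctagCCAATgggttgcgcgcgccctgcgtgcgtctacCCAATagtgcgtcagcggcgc
Cdc20: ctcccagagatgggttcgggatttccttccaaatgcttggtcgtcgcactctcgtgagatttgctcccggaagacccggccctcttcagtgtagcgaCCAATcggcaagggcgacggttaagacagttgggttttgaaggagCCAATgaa
None of the 6 promoter windows shown so far holds both motifs, so none overlap. The letters TGANTCA of the AP-1 site were searched too and occurred in 7.82% of all genes with a window. They occurred in 24.1% of such genes of the interferon list and in 0 of the 32 of the mitosis list. No binding was measured here.

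**Figure D2:**
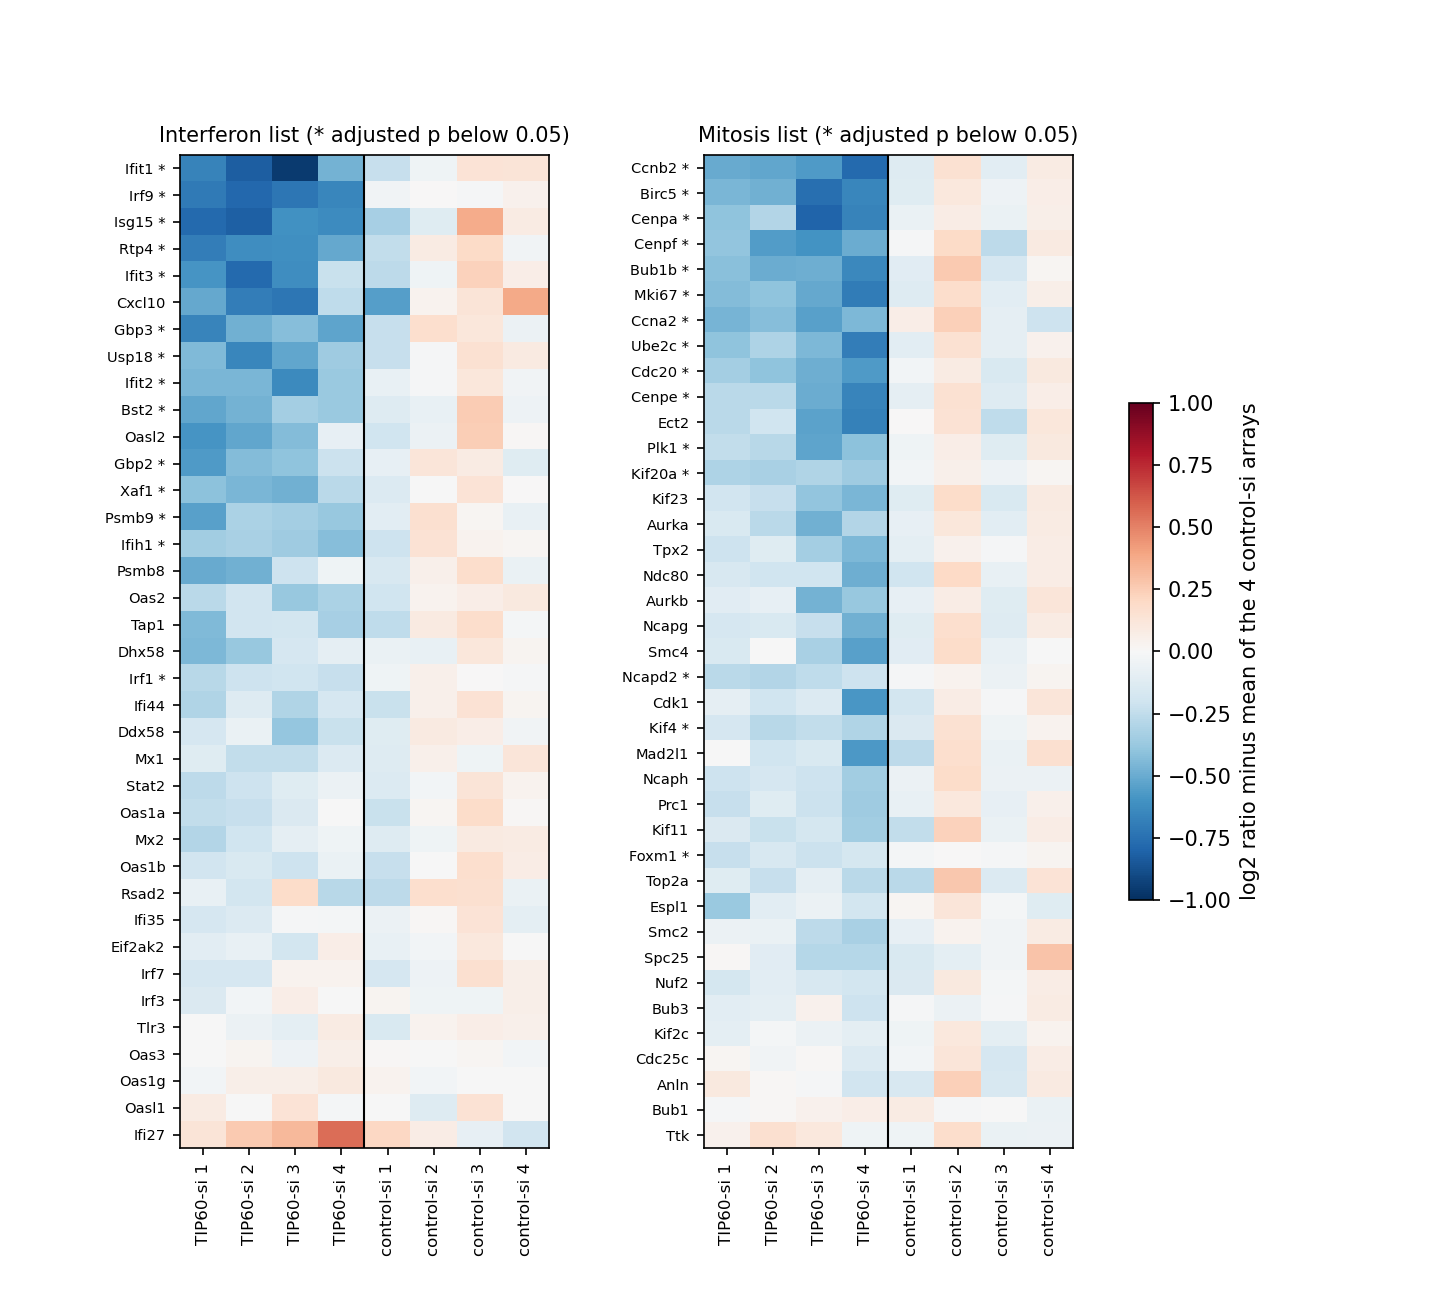
Colour gives the log2 ratio of each array (columns, TIP60-si to the left of the black line and control-si to its right) minus the mean of the 4 control-si arrays, for the 37 measured interferon genes and the 39 measured mitosis genes (rows, ordered by difference). Stars mark called genes; in the starred rows all 4 TIP60-si arrays are blue, TIP60-si replicate 4 is the darkest in many mitosis rows, and control-si replicate 1 is the bluest control in many interferon rows.

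Other cell cycle lists were lower in fewer members. Of 22 replication-dependent histone genes, which are transcribed in S phase, 7 fell (31.8%, against 3.74% of all genes) and 0 rose. Their median was -0.093, and -0.17 without TIP60-si replicate 2. H2ac10 stood at 0.66, 0.71, 0.81 and 0.75 in TIP60-si, against 1.12, 1.07, 1.08 and 1.16 in control-si, with little spread in either group (difference -0.37, SE 0.046, adjusted p = 0.000931). H2ac23 (-0.44), H2ac13 (-0.37), H2ac15 (-0.33), the linker histone gene H1f3 (-0.50, 1 other probe at -0.12), H2bc6 (-0.30, 1 other probe at 0.043, call ended by 6 of 8 omissions) and H2ac7 (-0.21, call ended by 7 of 8 omissions) were lower too, and since these genes are near-identical copies, their probes may not be specific for 1 gene. Of 48 genes that act in DNA replication and at the G1/S boundary 4 fell (median -0.055, and -0.032 without TIP60-si replicate 4): the thymidylate synthase gene Tyms (-0.41, 3 other probes between -0.43 and -0.032), the cyclin gene Ccne1 (-0.30, 1 other probe at -0.026), the ribonucleotide reductase gene Rrm1 (-0.27, 1 other probe at -0.12, call ended by 1 of 8 omissions) and the replicative helicase gene Mcm4 (-0.27, 1 other probe at -0.0018, call ended by 4 of 8 omissions). That count was 2 without control-si replicate 4. The list of CDK inhibitors and the Rb family had 4 lower of 15 (median -0.15), and these brake or regulate the cycle. Cdkn2a, which encodes the inhibitors p16 and p19ARF, stood at 0.18, 0.22, 0.25 and 0.22 in TIP60-si, against 0.67, 0.81, 0.89 and 0.58 in control-si, with all of TIP60-si below (difference -0.52, SE 0.064, adjusted p = 0.000966). Cdkn3 (-0.64, 2 other probes between -0.087 and 0.019), the DREAM complex gene Lin54 (-0.29, 1 other probe at -0.053, call ended by 4 of 8 omissions) and Cdkn2c (-0.22, 1 other probe at -0.19, call ended by 6 of 8 omissions) were also lower, and the count was 2 without TIP60-si replicate 3 or control-si replicates 1, 2 or 4. Under all 27 alternatives the medians of the mitosis, histone, G1/S and CDK inhibitor lists stayed below 0, and the mitosis median was -0.16 within the Cy3 arrays and -0.38 within the Cy5 arrays. Omissions left between 10 and 19 mitosis genes lower, median centring left 0 and scaling over 12 arrays 1. Of the histone genes 0 were called lower with median centring, with scaling over 12 arrays, within Cy3 or within Cy5. Scaling without USP7-si replicate 4 left 8 of them lower. For the G1/S and CDK inhibitor lists too the lowest count over the alternatives was 0.

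The same mitosis list had a median of -0.30 in USP7-si minus control-si, which shares the control arrays, and TIP60-si against USP7-si called 1 of the 15 that fell in TIP60-si, Birc5 (adjusted p = 0.0436). For H2ac10 and Ncapd2 the USP7-si differences were -0.37 and -0.26 (adjusted p of TIP60-si against USP7-si 0.959 and 0.971). Cdkn2a differed between the knockdowns, with -0.11 in USP7-si (adjusted p = 0.00222).

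Among the proteins that carry out or receive the acetylation, 18 subunits of the TIP60 complex were measured. Besides Kat5, Morf4l2, a paralogue of the chromodomain subunit MRG15, was lower (-0.33) and Vps72, which binds H2A.Z, was higher (0.37, 1 other probe at 0.089, call ended by 4 of 8 omissions). Vps72 stood at 1.03, 0.83, 1.07 and 1.03 in TIP60-si, against 0.50, 0.47, 0.77 and 0.74 in control-si, and TIP60-si replicate 2 was the lowest of its group but above all of control-si. The other 15 were not called, and the median of the 18 was 0.060, which turned to -0.088 with median centring. Without control-si replicate 3, 4 of the 18 were lower. Of 18 histone chaperones and H2A variants 3 were lower and 0 higher. H2az1, which encodes H2A.Z, stood at 0.076, 0.0060, 0.022 and -0.063 in TIP60-si, against 0.35, 0.40, 0.38 and 0.42 in control-si. The groups were separated by more than the range within either (difference -0.38, SE 0.047, adjusted p = 0.000978). The chaperone gene Set (-0.41, 2 other probes between -0.19 and -0.0017) and H2ax, the variant phosphorylated at DNA breaks (-0.23, call ended by 5 of 8 omissions), were the other called members, and 5 were lower without control-si replicate 3. Of 28 other acetyltransferases and deacetylases the deacetylase gene Sirt1 was lower (-0.37, 1 other probe at -0.017) and Hdac6 higher (0.18, call ended by 7 of 8 omissions), with 2 lower without control-si replicate 3. The called share of that list was 7.1%, against 5.21% over all genes. Of 32 genes of the DNA damage response, in which TIP60 takes part as a protein, Ercc1 was higher (0.25) and 0 were lower. That is 3.1% called, below the 5.21% over all genes. Among 24 p53 targets Plk3 was higher (0.23, call ended by 7 of 8 omissions), 4.2% called and also below the share over all genes. An unadjusted limma p below 0.05 was reached by 12 of the 24 and by 7090 of all 41174 gene probes. The bases differ, since list members are the brightest probes of their genes. The list median was -0.093. Without control-si replicate 3, 4 of the p53 targets were lower. Of 21 apoptosis genes Apaf1, the scaffold of the apoptosome, was lower (-0.44, 2 other probes between -0.16 and -0.0030), and the antiapoptotic gene Bcl2l1 (0.39, 2 other probes between 0.063 and 0.20, call ended by 6 of 8 omissions), Hrk (0.26, call ended by 6 of 8 omissions) and Diablo (0.20, 1 other probe at -0.037, call ended by 7 of 8 omissions) were higher. The lower apoptosis genes numbered 4 without control-si replicate 3 and 2 without USP7-si replicate 4. The higher ones numbered 0 without TIP60-si replicate 4 or control-si replicates 2, 3 or 4, and 1 without TIP60-si replicates 1, 2 or 3.

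The largest falls of single genes lay in several pathways. Papss1, the enzyme that makes the universal sulfate donor PAPS, stood at -1.43, -1.69, -1.90 and -1.63 in TIP60-si, against -0.17, -0.24, -0.48 and -0.25 in control-si. Every TIP60-si array was far below every control-si array (difference -1.38, SE 0.088, adjusted p = 1.17e-05), leaving 38.5% of the control-si level. In the same list of 24 sulfate genes, the keratan sulfate sulfotransferase gene Chst1 (0.49) and Bpnt2, which clears the by-product of sulfation (0.29, 2 other probes between -0.11 and 0.031), were higher, and 3 of the list were lower without TIP60-si replicate 4. Cyp51, the lanosterol demethylase of cholesterol synthesis, stood at -1.71, -1.94, -2.21 and -2.31 in TIP60-si, against -0.92, -0.76, -0.99 and -0.82 in control-si. TIP60-si replicates 3 and 4 were the lowest, and no array overlapped (difference -1.17, SE 0.10, adjusted p = 7.41e-05), but its other 3 probes lay between -0.22 and -0.038 and were not called. Of the 21 cholesterol synthesis genes the sterol-regulated membrane gene Tmem97 was lower (-0.20, call ended by 7 of 8 omissions) and the farnesyl diphosphate synthase gene Fdps higher (0.28, 1 other probe at -0.0043), with 2 higher without USP7-si replicate 4.

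Cavin3 encodes a coat protein of caveolae, the flask-shaped invaginations that are abundant in fat cells. It stood at -1.17, -1.35, -1.19 and -1.02 in TIP60-si, against -0.022, -0.22, -0.27 and -0.100 in control-si. No overlap remained (difference -1.03, SE 0.073, adjusted p = 1.17e-05). Of the 14 caveolar genes the membrane-bending gene Pacsin3 also fell (-0.19, call ended by 5 of 8 omissions), while the probe of Cavin2 lay at -0.055 (adjusted p = 0.754) and 1 of 5 Cavin1 probes, chosen after its values were seen, was higher (0.43, adjusted p = 0.0193, the others 0.089 to 0.20). Cd151, a tetraspanin that partners laminin-binding integrins, stood at 0.29, 0.24, 0.20 and 0.26 in TIP60-si, against 1.17, 1.13, 1.04 and 1.08 in control-si. TIP60-si and control-si formed tight, separate groups (difference -0.86, SE 0.059, adjusted p = 1.17e-05). Ogn, a small leucine-rich proteoglycan whose transcript is far scarcer in these adipocytes than in the reference, stood at -5.42, -5.35, -5.29 and -5.12 in TIP60-si, against -4.12, -4.19, -4.45 and -4.67 in control-si. Control-si replicate 4 came nearest to TIP60-si (difference -0.94, SE 0.12, adjusted p = 0.000957).

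Of the remaining large falls, Lrrc75b (-0.84), the membrane protein gene Bri3bp (-0.93, 3 other probes between -0.46 and -0.059), Ahcyl1, which restrains the inositol trisphosphate receptor (-0.90, 2 other probes between -0.69 and -0.051), and the thiamine transporter gene Slc19a2 (-0.77) had adjusted p of 0.000324 or less. Tmpo, of the nuclear lamina, fell too (-0.81, 3 other probes between -0.44 and -0.032), with 1 of the other probes called. The arylsulfatase gene Arsj (-0.78, 1 other probe at 0.018), Tmem64 (-0.76, 1 other probe at -0.35) and Marcksl1, an actin-regulating substrate of protein kinase C (-0.73, 1 other probe at -0.34), completed the list. In USP7-si, Papss1 (0.017), Cyp51 (0.017), Cavin3 (-0.063), Cd151 (-0.0069), Ogn (0.047), Bri3bp (-0.020) and Ahcyl1 (-0.0055) had small differences from control-si, and each differed between TIP60-si and USP7-si (adjusted p from 6.15e-06 to 0.000382). These genes were chosen for their fall on the same TIP60-si arrays, so those p-values are not separate support. The smallest of the 20 largest named falls was -0.726 and the next outside was -0.725.

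**Figure D3:**
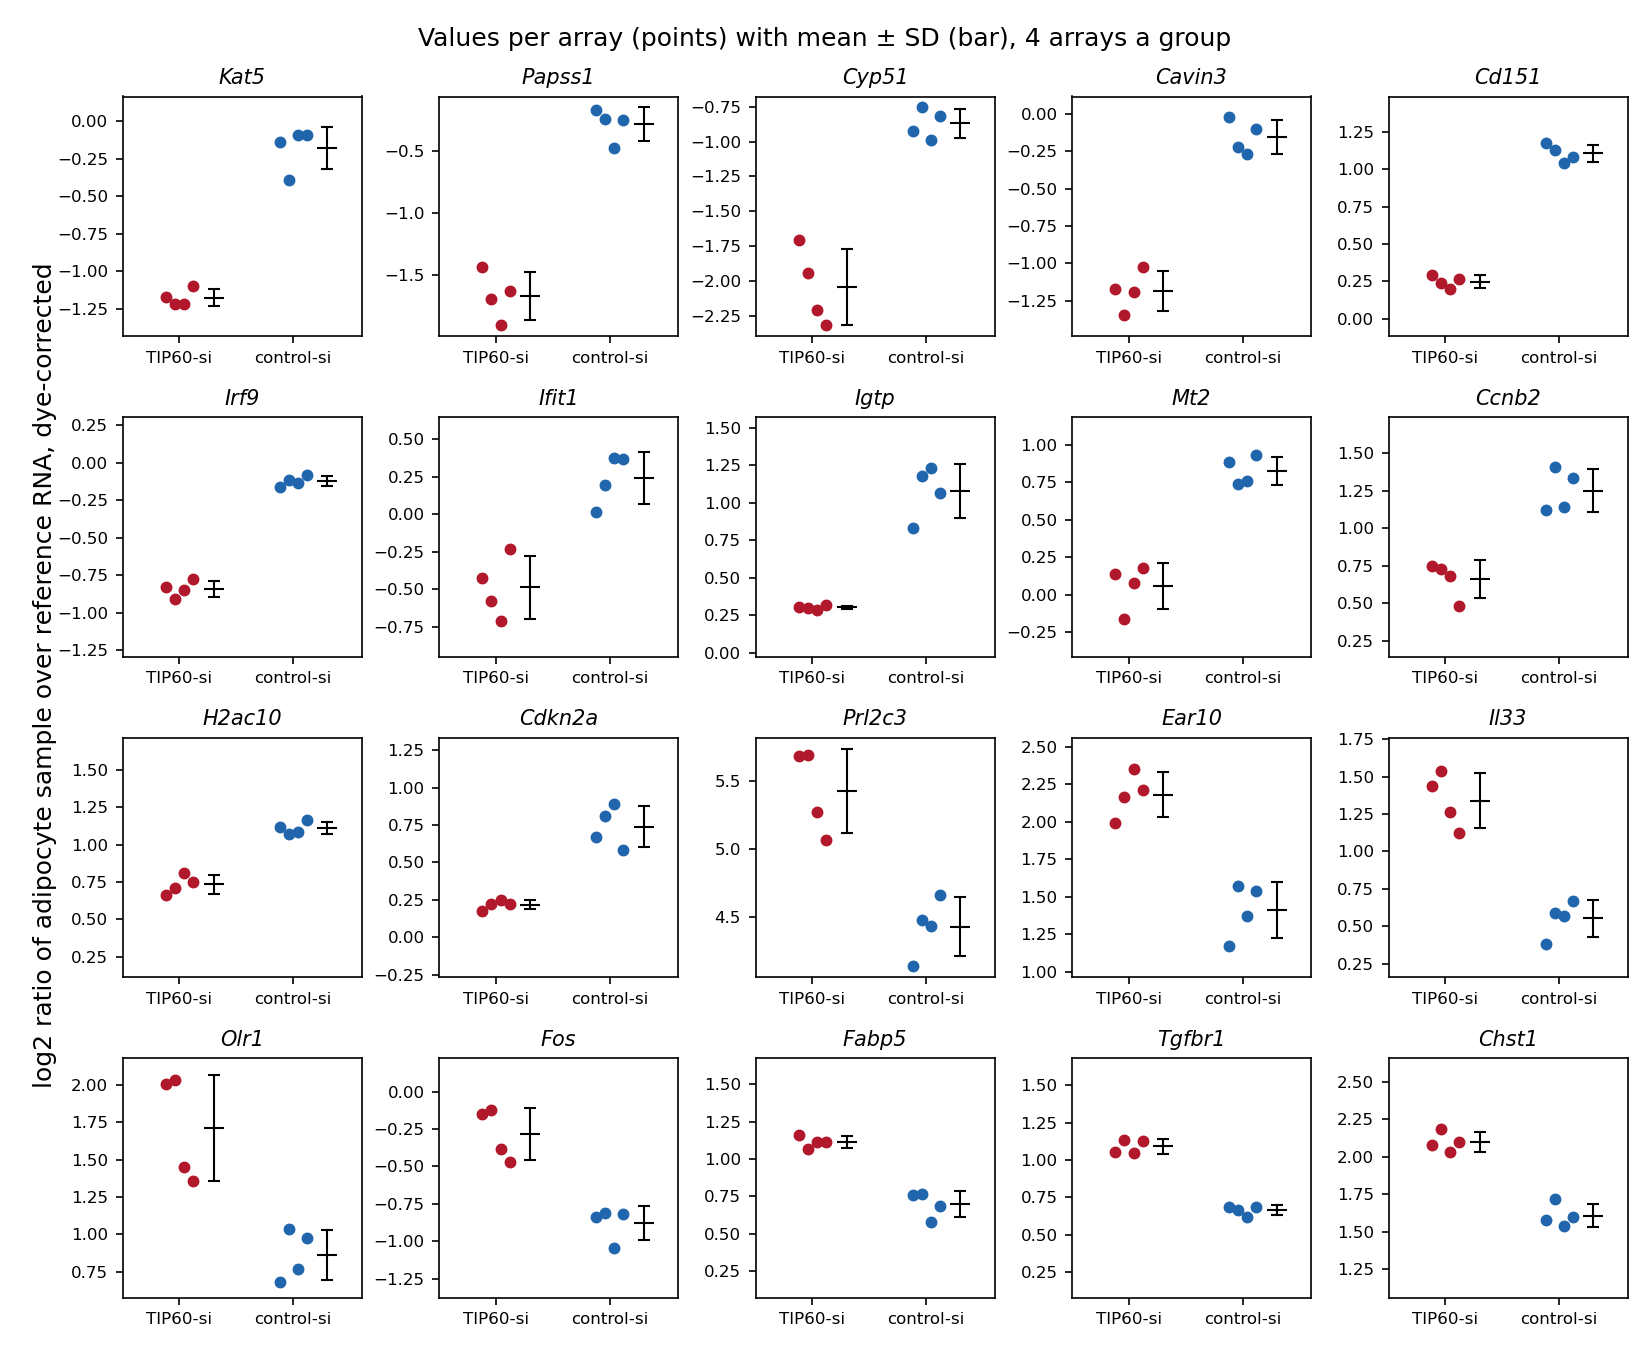
Log2 ratio of the adipocyte sample over the reference RNA (y axis, dye-corrected) on each of the 4 TIP60-si arrays (red, left) and the 4 control-si arrays (blue, right) for 20 genes, with the mean ± SD as a bar beside the points. The y axes span different ranges; in all 20 panels the groups do not overlap, with TIP60-si lower in the first 12 genes and higher in the last 8.

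The largest named rise was of a placental hormone family. The proliferins of the Prl2c family are prolactin-related secreted proteins, known from the placenta and from growing fibroblasts. Prl2c3 stood at 5.68, 5.69, 5.27 and 5.06 in TIP60-si, against 4.13, 4.48, 4.44 and 4.66 in control-si. TIP60-si replicates 1 and 2 were the highest, and all 4 were above control-si (difference 0.999, SE 0.15, adjusted p = 0.00289), with its brighter second probe at 0.72. Prl2c1 (0.82) and Prl2c5 (0.82, 1 other probe at 0.69) rose as well. These were the only genes with a Prl2c symbol that were measured, and every probe of them was called higher. The list was wider than the Prl2c genes: the other 15 of its 18 measured members carry other symbols and were not called. The list median was 0.0022. The promoters are shown to make plain how alike the copies are: over the aligned 250 bases before the start, Prl2c3 and Prl2c5 were 96.0% identical. The last 150 bases are given from chr13:12800080-12800229 (minus strand) for Prl2c3 and chr13:13182566-13182715 (plus strand) for Prl2c5, with differing or inserted bases in capitals.
Prl2c3: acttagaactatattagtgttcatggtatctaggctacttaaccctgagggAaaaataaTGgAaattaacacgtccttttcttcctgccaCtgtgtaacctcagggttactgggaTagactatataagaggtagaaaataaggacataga
Prl2c5: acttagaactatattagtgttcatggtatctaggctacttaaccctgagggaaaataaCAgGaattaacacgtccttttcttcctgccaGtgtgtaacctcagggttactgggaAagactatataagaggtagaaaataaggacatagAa
Probes of such near-identical copies may bind each other's transcripts, so the 3 rises may be of fewer genes.

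A ribonuclease family rose beside it. The eosinophil-associated ribonucleases are a rodent family of secreted enzymes that has expanded by duplication. Ear10 stood at 1.99, 2.17, 2.36 and 2.21 in TIP60-si, against 1.17, 1.57, 1.37 and 1.54 in control-si. All TIP60-si arrays were above all control-si arrays (difference 0.77, SE 0.11, adjusted p = 0.0028, 1 other probe at 0.90). Ear-ps9, annotated as a pseudogene (0.81), and Ear6 (0.66, 1 other probe at 0.64) rose too, and the same limit on copies holds. No other gene with an Ear symbol was measured, and every probe of these was called higher. The list of 10 measured genes was wider. In it the secreted ribonuclease gene Rnase4, which carries no Ear symbol, was lower (-0.31, 1 other probe at -0.17, call ended by 5 of 8 omissions). In USP7-si the probes of Ear10, Ear-ps9 and Ear6 lay at -0.34, -0.29 and -0.22, and those of Prl2c3, Prl2c1 and Prl2c5 at -0.17, -0.25 and -0.12. All 6 differed between TIP60-si and USP7-si (adjusted p from 0.000145 to 0.00134), on the same TIP60-si arrays by which they were chosen.

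Signalling and inflammatory genes moved singly. Il33, a nuclear cytokine released by damaged cells, stood at 1.44, 1.54, 1.26 and 1.12 in TIP60-si, against 0.38, 0.59, 0.57 and 0.67 in control-si. The lowest TIP60-si array was well above the highest control-si array (difference 0.79, SE 0.095, adjusted p = 0.000822). Olr1, a scavenger receptor for oxidised lipoprotein, stood at 2.01, 2.03, 1.45 and 1.36 in TIP60-si, against 0.69, 1.04, 0.77 and 0.98 in control-si. TIP60-si replicates 1 and 2 were higher than replicates 3 and 4, and control-si was below all of them (difference 0.84, SE 0.14, adjusted p = 0.00601). Of 35 NF-kB, cytokine and chemokine genes the chemokine gene Ccl2 rose with Il33 (0.40, call ended by 2 of 8 omissions), and Nfkb1, which encodes the p50 subunit, fell (-0.62, 3 other probes between -0.15 and 0.042). The number that fell was 2 without TIP60-si replicate 4, control-si replicates 1 or 3 or USP7-si replicate 4. The immediate early genes Fos, Fosl1 and Egr1 were the 3 called of 33 heat shock and immediate early genes, all higher. Fos stood at -0.15, -0.12, -0.39 and -0.47 in TIP60-si, against -0.83, -0.81, -1.05 and -0.82 in control-si. Control-si replicate 3 was the lowest array, and the groups did not overlap (difference 0.59, SE 0.082, adjusted p = 0.00183). Fosl1 rose by 0.66 and Egr1 by 0.50, with the Egr1 call ended by 3 of 8 omissions. The USP7-si differences from control-si were 0.88 for Fos, 0.89 for Egr1 and -0.20 for Fosl1. TIP60-si was lower than USP7-si in Fos and Egr1 (adjusted p = 0.0484 and 0.041) and higher in Fosl1 (adjusted p = 0.00112).

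The other large rises were Asb12 (0.72), the olfactory receptor gene Olfr1099 (0.72), the chromatin protein gene Hmga2 (0.59, 2 other probes between 0.062 and 0.54), Igfn1 (0.60), the Golgi gene Gcc1 (0.64, 1 other probe at 0.13) and Plekho2 (0.64, 1 other probe at 0.088). The late endosome GTPase gene Rab7 (0.84, 2 other probes between 0.0028 and 0.10, call ended by 5 of 8 omissions), the water channel gene Aqp1 (0.62, call ended by 6 of 8 omissions) and the cytochrome gene Cyp2e1 (0.65, call ended by 2 of 8 omissions) rested more on single arrays, and Cyp2e1 was above background on 3 of the 4 TIP60-si arrays. The smallest of the 20 largest named rises was 0.591 and the next outside was 0.588.

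Markers of the fat cell held no call. None of the 10 mature adipocyte markers was called (limma, with array medians of 3.86 to 4.07 in TIP60-si and 3.57 to 4.06 in control-si). The ranges overlap through control-si replicate 2 alone. Nearest to a call were Lipe (0.45, adjusted p = 0.0876) and Cidec (0.31, adjusted p = 0.163), both higher in TIP60-si than in USP7-si (adjusted p = 0.0129 and 0.0126). Pparg and Cebpa lay slightly below 0 (-0.089 and -0.091). With 5.21% of all genes called, 0 calls in 10 markers does not show that they were unchanged. These markers stood far above the undifferentiated reference RNA in both groups. Of 21 adipogenic transcription factors Klf5, an early activator of adipogenesis, was higher (0.39, 2 other probes between 0.065 and 0.39), and the coactivator gene Ncoa2 (-0.32, 3 other probes between -0.058 and 0.099, call ended by 1 of 8 omissions) and Zfp467 (-0.34, call ended by 7 of 8 omissions) were lower. In the lists of fatty acid uptake, fatty acid and triglyceride synthesis, lipid droplet and adipokine genes all called members rose. Their higher shares were 6.25%, 7.4%, 11.1% and 10.5%, against 1.46% over all genes. These shares rest on 1 or 2 genes a list. The synthesis list held 0 rises without control-si replicate 1 or 4. The adipokine list held 0 without TIP60-si replicate 3 or control-si replicate 2 or 4. With any 1 array left out, 1 to 3 rises remained in the lipid droplet list and 1 or 2 in the uptake list. Other lipid lists held falls. Cholesterol synthesis had 2 lower and 1 higher, beta-oxidation 1 lower and 0 higher, and cholesterol export 1 lower and 3 higher. Fabp5, a fatty acid carrier, stood at 1.16, 1.07, 1.12 and 1.11 in TIP60-si, against 0.76, 0.77, 0.58 and 0.68 in control-si. Both groups were tight and did not overlap (difference 0.42, SE 0.056, adjusted p = 0.00165, 1 other probe at 0.38), and Fabp5 was the 1 called of 16 genes of fatty acid uptake (2 without TIP60-si replicate 1). Of 27 genes of fatty acid and triglyceride synthesis the desaturase gene Scd1 (0.60, call ended by 7 of 8 omissions) and the acyltransferase gene Agpat2 (0.38, 1 other probe at 0.33, call ended by 2 of 8 omissions) were higher. Scd1 stood at 4.15, 4.02, 4.06 and 4.34 in TIP60-si, against 3.67, 3.97, 3.21 and 3.30 in control-si, where control-si replicate 2 came close to TIP60-si. Of 18 lipid droplet genes Bscl2, or seipin, which shapes new droplets (0.40, 1 other probe at -0.054), and Pnpla2, the adipose triglyceride lipase (0.39, 1 other probe at 0.44, call ended by 7 of 8 omissions), were higher, and the Pnpla2 difference turned to -0.16 after scaling to equal spread. Of 19 adipokine genes Angptl4, an inhibitor of lipoprotein lipase (0.37, call ended by 3 of 8 omissions), and Apoe (0.27, call ended by 5 of 8 omissions) were higher. The medians were 0.12 for lipid droplet genes (-0.037 after scaling), 0.078 for synthesis (-0.026 with median centring), 0.047 for uptake (-0.084 with median centring) and 0.012 for adipokines (-0.071 after scaling). Leaving out control-si replicates 2 and 3 in turn gave lipid droplet medians of 0.18 and 0.078.

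Cholesterol export and insulin genes gave further single calls. Of 20 LXR target and cholesterol export genes Lpcat3, a phospholipid-remodelling enzyme (0.35, call ended by 3 of 8 omissions), rose with Apoe and Olr1, and Soat1, which esterifies cholesterol (-0.36, 2 other probes between -0.15 and -0.14, call ended by 2 of 8 omissions), fell. The count of rises was 1 without control-si replicate 2 or 4, and the median of 0.088 stayed above 0 under all alternatives. Of 21 insulin and glucose genes the Akt inhibitor gene Trib3 (-0.48, 1 other probe at -0.013) and the receptor gene Igf1r (-0.35, 4 other probes between -0.10 and 0.040, call ended by 6 of 8 omissions) were lower. Among 16 brown fat genes Prdm16, a regulator of brown fat identity, was higher (0.25, call ended by 6 of 8 omissions). That is 6.25% of the list, near the 5.21% called over all genes.

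**Figure D4:**
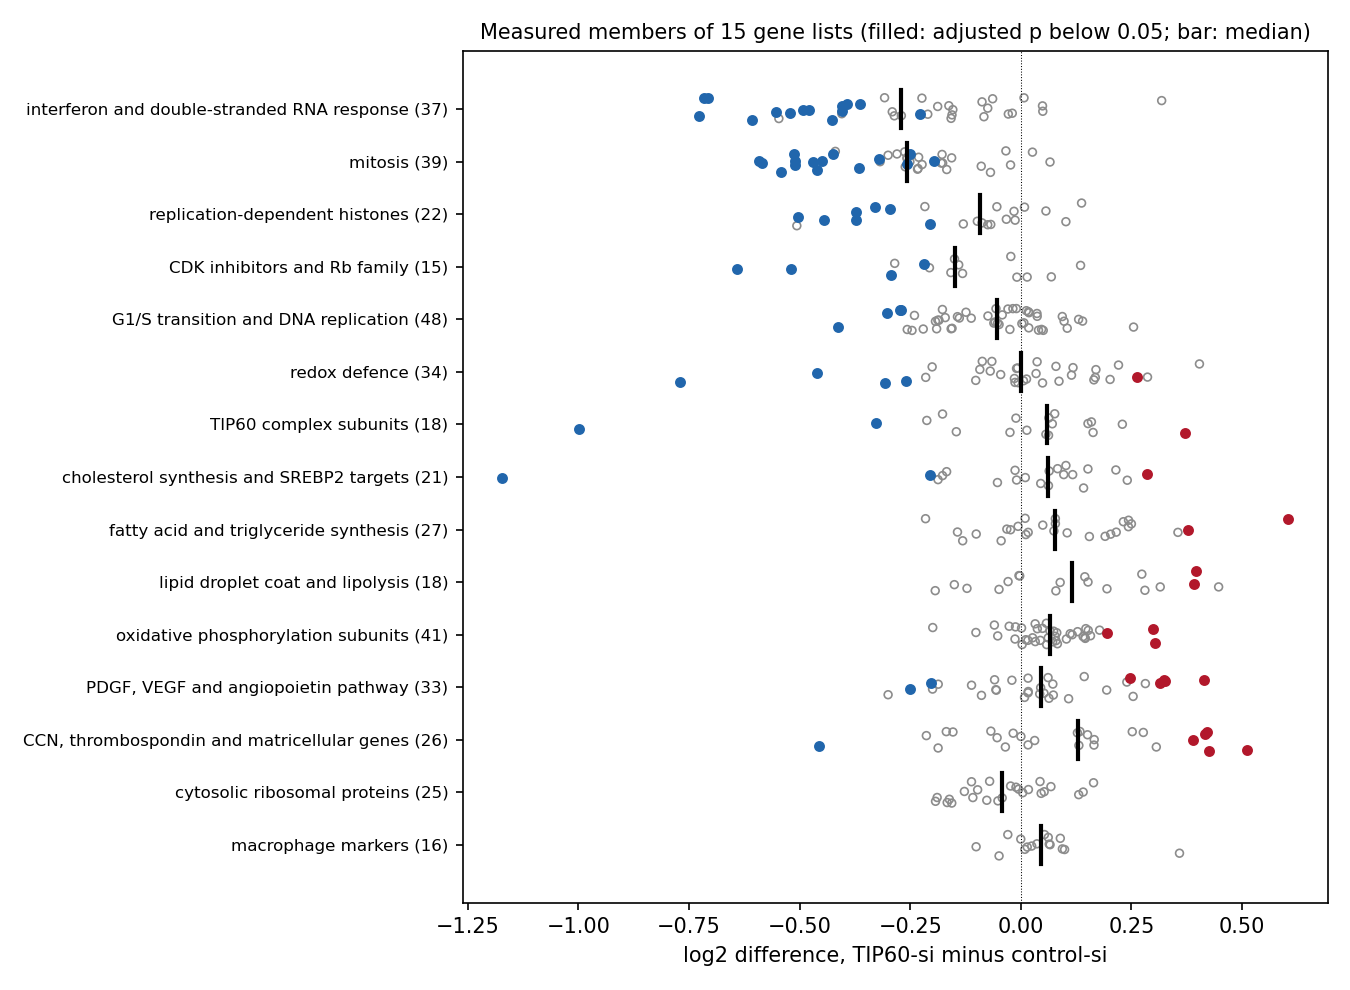
Difference between TIP60-si and control-si on the log2 scale (x axis) for each measured member of 15 gene lists (rows, number measured in brackets); filled points are called (blue lower, red higher), open points are not, and the black bar is the median of the list. The interferon and mitosis rows have their medians at -0.27 and -0.26, the macrophage and cytosolic ribosomal rows hold 0 called genes, and the medians of the lipid droplet, synthesis, cholesterol, oxidative phosphorylation, PDGF and TIP60 complex rows turn below 0 with median centring or scaling.

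Mitochondrial and stress lists gave small differences. Of 41 oxidative phosphorylation subunits 3 rose, Ndufs8 (0.30, call ended by 1 of 8 omissions), Uqcrc1 (0.30, 1 other probe at 0.22, call ended by 4 of 8 omissions) and Cox6b1 (0.19, call ended by 5 of 8 omissions), with 0 without control-si replicate 2 and 1 without TIP60-si replicate 4 or control-si replicate 4. Their median of 0.065 was -0.11 with median centring and -0.043 after scaling, and 0.034 without control-si replicate 3. Of 40 mitochondrial ribosomal proteins 4 rose, with Mrpl4 (0.39) kept under the 8 omissions and Mrpl37 (0.24, call ended by 7 of 8 omissions), Mrps9 (0.18, 2 other probes between -0.044 and 0.21, call ended by 7 of 8 omissions) and Mrps28 (0.18, call ended by 7 of 8 omissions) not, and Mrps7 (-0.34, 1 other probe at 0.14, call ended by 3 of 8 omissions) and Mrps16 (-0.20, call ended by 6 of 8 omissions) fell. Of 24 citrate cycle genes the dehydrogenase subunit gene Dld (-0.43, 2 other probes between -0.45 and -0.18) and the pyruvate dehydrogenase kinase gene Pdk1 (-0.31, 1 other probe at -0.31, call ended by 5 of 8 omissions) were lower, and of 23 beta-oxidation genes Pdk4 (-0.28, call ended by 4 of 8 omissions), which turned to 0.047 after scaling. The redox list had 4 lower and 1 higher of 34. Mt2, a metal-binding metallothionein, stood at 0.13, -0.16, 0.080 and 0.18 in TIP60-si, against 0.88, 0.74, 0.76 and 0.93 in control-si. The groups were far apart (difference -0.77, SE 0.082, adjusted p = 0.00031), and its neighbour Mt1 fell less (-0.31, 1 other probe at -0.019, call ended by 4 of 8 omissions). The peroxidase genes Prdx4 (-0.46, 1 other probe at -0.090) and Gpx8 (-0.26, call ended by 6 of 8 omissions) were lower and the quinone reductase gene Nqo1 higher (0.26), and the lower count was 2 without TIP60-si replicate 2 or control-si replicates 1 or 4 and the higher count 2 without TIP60-si replicate 4 or control-si replicate 3. Of 33 genes of ATF4 and the unfolded protein response 4 were lower, Trib3 again, the proline synthesis gene Pycr1 (-0.37), the lipoprotein receptor gene Vldlr (-0.41) and the endoplasmic reticulum degradation gene Herpud1 (-0.29).

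Matrix and growth factor genes moved in both directions. Of 26 CCN, thrombospondin and matricellular genes 5 rose and 1 fell, with a median of 0.13. The median stayed above 0 under all alternatives but was 0.064 without control-si replicate 2, 0.037 with median centring and 0.029 within the Cy3 arrays. Tgfbr1, the type I receptor of TGF-beta, stood at 1.05, 1.14, 1.05 and 1.13 in TIP60-si, against 0.69, 0.67, 0.62 and 0.69 in control-si. Its groups were tight and separate (difference 0.42, SE 0.050, adjusted p = 0.000689), and its 2 other probes were also called, at 0.20 and 0.32. Ccn5 (0.39), Thbs2 (0.42), the latent TGF-beta binding gene Ltbp2 (0.42, call ended by 3 of 8 omissions) and Tnxb (0.51, 1 other probe at 0.062, call ended by 5 of 8 omissions) rose, and Fst, the activin antagonist follistatin, fell (-0.46). The rises numbered 3 without control-si replicate 2 or 4. Of 33 genes of the PDGF, VEGF and angiopoietin pathways the receptors Nrp1 (0.41, 4 other probes between -0.029 and 0.40, call ended by 1 of 8 omissions), Fgfr1 (0.31, 3 other probes between 0.18 and 0.38, call ended by 1 of 8 omissions) and Nrp2 (0.25, 1 other probe at -0.029, call ended by 5 of 8 omissions) and the ligands Angpt4 (0.33, 1 other probe at 0.38) and Angptl2 (0.32, 3 other probes between -0.043 and 0.31, call ended by 6 of 8 omissions) rose, and Flt1 (-0.20, 4 other probes between -0.19 and 0.084, call ended by 6 of 8 omissions) and Igfbp3 (-0.25, 2 other probes between -0.045 and 0.069, call ended by 8 of 8 omissions) fell, though Igfbp3 turned to 0.17 after scaling. The rises were 3, 1 and 3 without control-si replicates 1, 2 and 4. Of 29 matrix proteoglycans and proteins the basement membrane gene Nid1 (0.40) and the microfibril gene Mfap2 (0.36, 1 other probe at 0.14, call ended by 1 of 8 omissions) were higher, and Nid2 (-0.45, call ended by 6 of 8 omissions) was lower with Ogn. Of 29 proteases and inhibitors Mmp3, or stromelysin, rose (0.55) and Mmp14 (-0.29, 1 other probe at -0.021, call ended by 7 of 8 omissions) and Adamts9 (-0.27, 3 other probes between -0.0096 and 0.025, call ended by 7 of 8 omissions) fell, with 4 lower without TIP60-si replicate 4. Col12a1 was the 1 called of 34 collagens (-0.37, 3 other probes between -0.49 and 0.037, call ended by 3 of 8 omissions), which is 2.9%, below the 5.21% over all genes.

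Developmental and trafficking lists closed the survey. Of 30 Hox genes Hoxa2 (-0.34), Hoxa5 (-0.33, call ended by 3 of 8 omissions) and Hoxb2 (-0.27, call ended by 3 of 8 omissions) were lower. That is 10% of the list, against 3.74% of all genes, and 1 gene was lower without TIP60-si replicate 3 or control-si replicate 2. Of 36 Wnt pathway genes the receptor gene Fzd1 (-0.34) and the antagonist gene Sfrp2 (-0.27, call ended by 7 of 8 omissions) were lower, and Sfrp2 turned to 0.039 after scaling. The lower Wnt genes numbered 4 without control-si replicate 3. Of 21 preadipocyte and mesenchymal genes the transcription factor genes Twist1 (-0.34) and Snai2 (-0.32, call ended by 4 of 8 omissions) were lower and Thy1 higher (0.26, 1 other probe at 0.52, call ended by 5 of 8 omissions), and Runx2 was the 1 called of 21 bone and cartilage genes (-0.33, 5 other probes between -0.34 and 0.20, call ended by 6 of 8 omissions). Of 36 autophagy and lysosome genes Atg12, the ubiquitin-like conjugator of autophagosome growth (-0.73, 2 other probes between -0.23 and -0.21), and Wipi1 (-0.20, 1 other probe at -0.098, call ended by 3 of 8 omissions) were lower, and of 37 Rab GTPase genes, with Rab7 represented by a brighter probe that was not called, Rab2a (-0.68, 3 other probes between -0.49 and 0.046), Rab9 (-0.26, call ended by 3 of 8 omissions) and Rab18 (-0.23, 2 other probes between -0.018 and 0.084, call ended by 7 of 8 omissions). Among 20 clock genes the kinase gene Csnk1e (-0.45, 1 other probe at -0.17) and the repressor gene Nfil3 (-0.32, 1 other probe at -0.26, call ended by 6 of 8 omissions) were lower, as were Max (-0.21) and Pes1 (-0.27, 2 other probes between -0.0057 and 0.10, call ended by 2 of 8 omissions) of 30 Myc and ribosome biogenesis genes and Psma7 (-0.28, 1 other probe at 0.054, call ended by 6 of 8 omissions) of 31 proteasome genes. The called shares were 5.56% for Wnt, 14.3% for preadipocyte, 4.76% for bone and cartilage, 5.56% for autophagy and 8.11% for Rab genes. They were 10% for clock, 6.67% for Myc and 3.23% for proteasome genes, against 5.21% over all genes. The Wnt, bone, autophagy, Myc and proteasome shares are near or below it, so those calls say nothing particular about the lists. Limma called 0 of 25 cytosolic ribosomal proteins, against 5.21% of all genes. Of the 25, each taken by its brightest probe, 7 had an unadjusted p below 0.05, as had 7090 of all 41174 gene probes, which include dimmer probes. Rpl11 had the smallest (-0.19, adjusted p = 0.061, then Rps25 at -0.17, adjusted p = 0.112).

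Markers of other cell types were compared as whole lists and as short sets of defining markers. The 12 muscle and 16 macrophage genes held 0 calls by limma, where 5.21% of all genes were called, so lists this short say little. An unadjusted p below 0.05 was reached by 0 and 1 of them, and by 7090 of all 41174 gene probes, a base that includes the dimmer probes of each gene. The macrophage list held 1 rise without TIP60-si replicate 3 or USP7-si replicate 2. Those nearest to a call were Csf1r (0.36, adjusted p = 0.0568), C1qb (0.099, adjusted p = 0.405), Myod1 (-0.080, adjusted p = 0.518) and Myf6 (-0.058, adjusted p = 0.59). The summed log2 ratio of 5 defining macrophage markers ran from 1.23 to 1.37 in TIP60-si, against 0.68 to 1.0004 in control-si. Of these 5, Csf1r had the largest difference, and Itgam and Ptprc lay slightly below 0 at -0.030 and -0.049. The sum of the 4 other than Csf1r ran from 0.0065 to 0.41 in TIP60-si, against -0.017 to 0.34 in control-si, so that the groups overlap. The summed log2 ratio of 5 defining preadipocyte markers was 0.31, 0.12, 0.20 and 1.05 in TIP60-si, against 0.45, 0.016, 0.25 and 0.38 in control-si. TIP60-si replicate 4 alone stood above control-si, and the other 3 TIP60-si arrays lay inside the control-si range. The endothelial receptor gene Tek was the 1 called of 12 endothelial genes (0.27, 1 other probe at 0.035), with a USP7-si difference of 0.35. The part of other cells in the results was not tested. Over the 12 arrays the raw signal of the adipocyte RNA had medians of 124 to 196, on a background of 39.5 to 44, with 85.2% to 98.3% of gene probes above background, and the number of arrays limits the precision. Of the 1556 called probes 47 were above background on fewer than 4 arrays of a group and 0 were saturated. USP7-si replicate 4 had the narrowest spread of log ratios (median size 0.055, the other 11 arrays 0.109 to 0.148). The compared groups differed in spread too: the median size was 0.135 to 0.148 in TIP60-si and 0.117 to 0.132 in control-si, without overlap. The part of this wider spread in the differences was not tested. After scaling, 1127 probes were called with USP7-si replicate 4 left out, in place of 97. The list medians and single genes that changed sign after scaling did so without it too, with medians of -0.040 for lipid droplet genes and -0.046 for oxidative phosphorylation.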

How the data were processed

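RNA of 12 samples was measured on two-colour arrays, and the deposited raw files hold the mean signal and local background intensity of both dyes at 45220 spots. Per the labels' protocols, the authors used an Agilent scanner, read the spots with Imagene and deposited log2 ratios after print-tip loess without background correction. Versions and the genome build of the probes are not given in the sources used here.

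The raw intensities were corrected with normexp (offset 50), normalized by loess within arrays with the 4046 control spots at weight 0, and turned to log2 sample over reference. A model of group and dye orientation over all 12 arrays was fitted with limma 3.58.1 in R 4.3.3, two-sided, after a test on simulated data. Of 41174 gene probes 34186 carried 1 symbol and 6988 none. Of those symbols 30365 were current, 3726 were updated through RefSeq and 95 were unmatched. The members and the 50 gene lists (1365 genes, 1267 measured) were chosen with earlier results of these data known. A list member is represented by its brightest probe. Named are Kat5, the 20 largest rises and falls among called, non-overlapping probes with a gene name (smallest p per gene), and up to 8 called members of each list (those with the smallest p), or the 2 nearest to a call. Promoters were aligned with Biopython 1.88.

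Replicate numbers recur in every group. The correlation of deviations between TIP60-si and control-si samples of the same number was -0.15, 0.31, 0.17 and -0.031, so the numbers were not taken to pair samples. Between samples of different number it reached 0.46 (TIP60-si replicate 4 with control-si replicate 1) and -0.37 (TIP60-si replicate 4 with control-si replicate 2). The source of these correlations was not tested. Alternatives changed the background correction, normalization, dye term, arrays, probe filter, weights and variance prior.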

Additional observations from a re-analysis of the deposited data

Results flagged for a closer look

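In 346 groups of 4 arrays, 2 for each of the named genes, the highest or lowest array was tested for its gap to the nearest of the others, and 13 (3.76%) stood apart. Chance gives about 1 in 20. TIP60-si replicate 4 held 4 of them, TIP60-si replicate 3 and control-si replicate 2 held 3 each, control-si replicate 3 held 2 and TIP60-si replicate 2 held 1.

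In TIP60-si, replicate 3 was low in Lrrc75b at -1.53 (the other 3 arrays -1.39 to -1.37), in Ncoa2 at -0.863 (-0.696 to -0.676) and in Myod1 at -0.286 (-0.177 to -0.160). Replicate 4 was low in Pes1 at -0.504 (-0.293 to -0.266) and Snai2 at -0.374 (-0.138 to -0.109), and high in Nfil3 at -0.449 (-0.772 to -0.728) and Pycr1 at -1.05 (-1.26 to -1.23). Replicate 2 was low in Vps72 at 0.834 (1.03 to 1.07).

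In control-si, replicate 2 was low in Kat5 at -0.389 (-0.140 to -0.090), in Angpt4 at -0.829 (-0.591 to -0.581) and in Mt1 at 0.457 (0.643 to 0.662). Replicate 3 was low in Fos at -1.05 (-0.835 to -0.809) and high in Adamts9 at 0.493 (0.350 to 0.371). Without the array that stood apart, the calls of Adamts9 and Snai2 were lost, and those of the other genes named here were kept, except for Myod1, which was not called.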

How the results depend on the processing

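The Kat5 difference ran from -1.16 to -0.83 and was called under all 27 alternatives, 25 planned and 2 chosen after seeing the data. The 1556 probes called between TIP60-si and control-si became 640 with plain background subtraction, 602 without a dye term, 26 with median centring (84.6% lower), 97 after scaling to equal spread (76.3% lower), 98 within Cy3 (49 lower), 32 within Cy5 (96.9% lower) and 983 after scaling the 8 arrays alone. Leaving out 1 array gave 736 to 1797. TIP60-si against USP7-si called 3037 probes, of which 59.7% were lower, and 1084 with plain subtraction, 1373 without a dye term, 41 with median centring, 310 after scaling (81.0% lower), 985 within Cy3, 45 within Cy5 and 1272 after scaling without USP7-si replicate 4. Leaving out 1 array gave 1500 to 3353, with 1614 without TIP60-si replicate 3 and 1532, 1500 and 1895 without USP7-si replicates 1, 3 and 4. It could not be fitted on the 8 arrays alone. With the replicate block the counts were 1715 and 3353, and not every sample correlated best with its own number. The cause of these shifts was not tested, and some settings also hold fewer arrays.

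Of 167 called results of named genes, 163 kept their sign under every alternative and 6 were called under every one: Kat5, Papss1, Cavin3, Bri3bp, Lrrc75b and Arsj. Of 4644 gene values, 3341 kept direction and side of the threshold, 1282 lost the call and 8 gained it. The 13 that changed sign were C1qb, not called, at -0.0052 with median centring, and, after scaling of 12 arrays, of 11 and of 8, Igfbp3 at 0.165, 0.177 and 0.183, Pdk4 at 0.047, 0.051 and 0.052, Pnpla2 at -0.157, -0.169 and -0.174 and Sfrp2 at 0.039, 0.041 and 0.043. Of the 40 largest named changes 36 stayed called without each of the 8 arrays compared. The exceptions were Aqp1, Cyp2e1, Rab7 and Scd1.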

Other observations

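Several called probes carry no gene symbol and were chosen here after their values were seen. The largest rise of all probes was one of them, MMAB040008, at 2.39, 2.30, 1.95 and 1.76 in TIP60-si, against 0.76, 1.15, 0.95 and 1.11 in control-si (difference 1.11, SE 0.14, adjusted p = 0.000978). TIP60-si replicates 1 and 2 were higher than replicates 3 and 4, and the groups did not overlap. The same split is seen in MMAB010896, at 0.997, 0.98, 0.43 and 0.38 in TIP60-si, against -0.16, -0.019, -0.083 and 0.015 in control-si (difference 0.76, adjusted p = 0.00615). Probe MMAB030872 was lower by similar amounts in both knockdowns, with a difference of -0.56 in TIP60-si and -0.59 in USP7-si from the shared control-si arrays, and TIP60-si against USP7-si gave an adjusted p of 0.788. Of the 1556 called probes 183 had no symbol, 76 higher and 107 lower.

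Of 855 called genes with several probes, 716 had 1 probe called, 135 had more than 1 called in 1 direction, and 4 had probes called in both directions. Rictor, a subunit of the kinase complex mTORC2, had 1 probe at -0.31 (adjusted p = 0.0195) and another at 0.32 (adjusted p = 0.0209), of similar brightness. Celf2, a splicing regulator, had 0.28 and -0.20. Golga3, of the Golgi, had -0.23 and 0.16, and Tatdn1 had 0.20 and -0.23. Where these probes lie on the transcripts was not tested.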
